A study of Homo sapiens with 20 samples.

Results

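The 14-3-3 proteins are small adaptor proteins that bind, as dimers, to phosphorylated serines and threonines on other proteins and thereby hold them in the cytoplasm, change their activity or shield them from other enzymes. Human cells have 7 such genes, YWHAB (14-3-3 beta), YWHAE (epsilon), YWHAG (gamma), YWHAH (eta), YWHAQ (theta), YWHAZ (zeta) and SFN (sigma, also called stratifin), and most partners can be bound by several of them. SFN is the member known to respond to DNA damage and is typical of epithelial cells, whereas the others are made in nearly all tissues. All 7 genes were taken by name from the 36346 gene names measured, and rows sharing a name were summed, which concerned YWHAE alone with 2 rows. The family was chosen because YWHAH was higher in silenced SW480 cells, so its difference there is given as a description without a test, and the question addressed was what the other 6 members did.

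RNA-seq was available from 20 libraries of the colorectal cancer cell lines HT29, with a focal amplification of 13q12.2, and SW480, with a gain of all of chromosome 13. POLR1D, which encodes a subunit shared by RNA polymerases I and III, was silenced with siPOLR1D-2 or siPOLR1D-3, and control cells received a scrambled siRNA (SCR), all for 72 h. HT29 had 4 SCR, 2 siPOLR1D-2 and 2 siPOLR1D-3 libraries, and SW480 had 6 SCR, 3 siPOLR1D-2 and 3 siPOLR1D-3 libraries. Each model is 1 established line under transient transfection, both lines carry extra copies of the targeted gene, and the labels do not say whether replicates were separate cultures, so the tests measure the spread between these libraries, which may be technical.

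Values are normalised estimated reads, which were scaled within each cell line. Depth was estimated at 13500000 to 27500000 reads per library. POLR1D was below every SCR library in all silenced libraries of both lines, at 2550 to 3492 against 4433 to 6036 in HT29 and at 843 to 1336 against 1829 to 2599 in SW480. Its log2 fold change was -0.72 in HT29 (limma adjusted p = 0.355) and -1.04 in SW480 (limma adjusted p = 0.000991). Markers of colorectal epithelium reached at least 10 in every library for 7 of 9 genes in both lines, though not the same genes. In HT29 the exceptions were CDX2, at 0 to 7.91, and CDH17, at 2.32 to 21.6. In SW480 they were LGALS4, at 0 to 56.4, and KRT20, at 1.73 to 94.6. The summed level of 7 markers of other lineages was 18.3 to 54.1 in SCR and 29.4 to 87.6 in silenced HT29 libraries, and 123 to 793 in SCR and 154 to 878 in silenced SW480 libraries, where COL1A1 reached 700 and ALB 217. PTPRC stayed under 22 in all libraries, and the part of these cells or transcripts in the results was not tested. The SW480 libraries fell on 2 sides of a first principal component that held 42% of the variance. Side 1 held SCR replicates 1 to 3 and siPOLR1D-2 replicates 1 and 2, and side 2 held SCR replicates 4 to 6, siPOLR1D-2 replicate 3 and all siPOLR1D-3 libraries, so siRNA and side are partly confounded. In such bulk samples, fewer cells of a type and less RNA per cell cannot be told apart.

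The members are spread over 7 chromosomes (GRCh38, GENCODE v29). YWHAH lies at chr22:31944461-31957603 on the forward strand, YWHAQ at chr2:9583972-9631014 and YWHAE at chr17:1344272-1400378 on the reverse strand, YWHAB at chr20:44885676-44908532 on the forward strand, YWHAG at chr7:76326794-76359031 on the reverse strand and SFN at chr1:26863138-26864457 on the forward strand. YWHAZ is on chromosome 8. The proteins encoded by the longest annotated coding sequences differ little in length, from 245 to 255 residues. YWHAB and YWHAZ were the most alike, with 87.7% identical residues, followed by YWHAG and YWHAH with 87%. SFN and YWHAE were the least alike, with 60.5%.

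Despite this likeness of the proteins, few stretches of transcript are shared between members. Of the 31-base words of each gene's transcripts, 0.242% (YWHAG) to 12.8% (YWHAZ) also occurred in transcripts of another gene, and YWHAE was second with 8.89%. YWHAG and YWHAH were the only pair of members that shared any word, with 9 words. The 20 pseudogene rows of the family held 0.0216% to 0.0965% of the family's signal, the largest being YWHAZP4 at 3.22 to 16.1. YWHAH overlaps Z82190.2 on the same strand and C22orf24 on the opposite strand, YWHAE overlaps AC032044.2 on the opposite strand, and YWHAQ overlaps RF00019 on the opposite strand. The strand setting of the quantification is not given in the sources used here. Where these 3 members share sequence with the genes that overlap them, reads may not be told apart. Of the words of YWHAH, 3.4% occurred in another gene on either strand, and of those of YWHAQ 5.56%.

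To show how the upstream regions of the members differ, the stretches just before the annotated gene start are printed for YWHAH, on which the family was selected, for YWHAQ, the member called in SW480, and for SFN, which differed most between siRNAs. They come from RefSeq (GRCh38.p14), where windows of 250 bases before and 50 bases after the start matched 6 of the 7 members, all but YWHAZ. Capitals mark the palindrome TGACGTCA, the cAMP response element bound by CREB and ATF family factors, or the CCAAT box bound by NF-Y (CCAAT, or ATTGG when on the other strand).
YWHAH promoter, chr22:31944285-31944460, forward strand: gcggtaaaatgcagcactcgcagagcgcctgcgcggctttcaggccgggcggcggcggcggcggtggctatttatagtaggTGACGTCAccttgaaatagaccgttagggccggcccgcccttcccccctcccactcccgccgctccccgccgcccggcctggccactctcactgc
YWHAQ promoter, chr2:9631015-9631247, reverse strand: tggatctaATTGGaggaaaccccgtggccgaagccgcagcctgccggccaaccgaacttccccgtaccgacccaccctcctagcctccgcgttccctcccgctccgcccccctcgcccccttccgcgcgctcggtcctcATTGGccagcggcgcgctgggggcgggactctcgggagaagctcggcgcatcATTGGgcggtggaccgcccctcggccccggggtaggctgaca
SFN promoter, chr1:26862899-26863137, forward strand: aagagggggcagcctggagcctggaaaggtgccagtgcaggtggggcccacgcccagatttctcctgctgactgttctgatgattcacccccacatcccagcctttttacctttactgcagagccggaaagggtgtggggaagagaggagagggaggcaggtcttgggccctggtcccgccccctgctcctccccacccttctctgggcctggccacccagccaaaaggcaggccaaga

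The motifs were chosen after the sequences had been read and were searched on both strands over the full windows. TGACGTCA was found in YWHAH alone among the 6 members, once, and in 1.85% of all 35116 promoter windows. The CCAAT box occurred 3 times in YWHAQ, where 1 copy overlaps a GC box, once in YWHAB and once in SFN, in its case outside the stretch printed, and in 34.6% of all windows. The GC box GGGCGG was found in all 6 members, 1 to 4 times, and in 45% of all windows. These are matches of letters and not measured binding.

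The make-up of the family in control cells differed between the lines. To compare members with each other, values were divided by the exon length of each gene and expressed as a share of the summed family level in the same library. YWHAE held the largest share in both lines, with 32.9% ± 2.5 (SD, n = 4) in HT29 SCR and 45.4% ± 4.6 (SD, n = 6) in SW480 SCR. YWHAZ followed in HT29, with 24.3% ± 3.6 against 12.5% ± 1.8 in SW480, whereas YWHAQ followed in SW480, with 23.3% ± 3.4 against 16.2% ± 1.1 in HT29.

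YWHAH held 8.58% ± 1.5 in HT29 SCR and 3.12% ± 0.54 in SW480 SCR. YWHAG held 8.73% ± 0.94 and 6.16% ± 0.53, YWHAB held 6.56% ± 0.2 and 4.46% ± 0.68, and SFN held 2.74% ± 0.5 and 5.06% ± 1.6. All members but SFN kept their ranges apart between the lines, and SFN overlapped only in its range from 3.05% to 3.36%. All 7 shares passed a 2-sided exact permutation test adjusted over the 7 comparisons, with adjusted p = 0.0111 for each of the 6 members whose ranges were apart, which had the smallest p the design allows (0.00952), and 0.019 for SFN. The SW480 SCR values of YWHAH were part of its selection, so its lower share there is a description and its p is not support. The shares of 1 library sum to the whole, so the 7 tests are not independent. YWHAE, YWHAQ and SFN were higher in SW480 while the other 4 were lower.

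**Figure D1:**
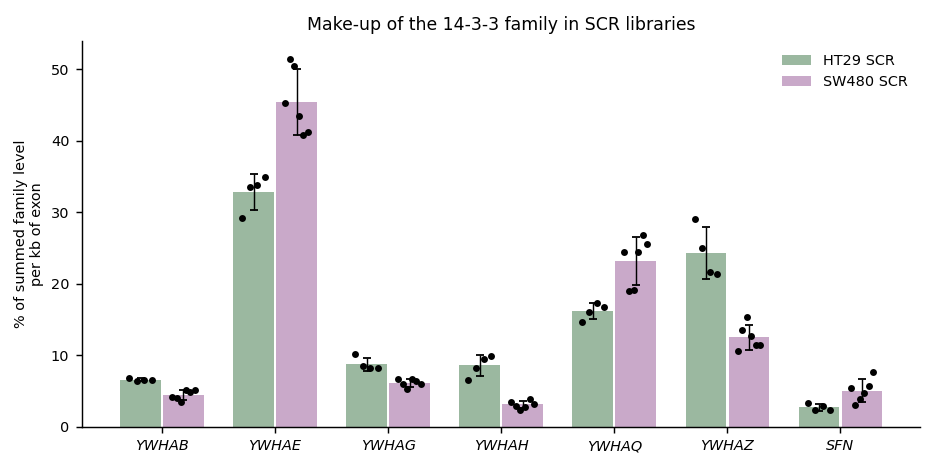
Share of each 14-3-3 gene in the summed family level per kb of exon, in percent, for the SCR libraries of HT29 (4) and SW480 (6). Bars are means, error bars are SD and points are libraries. YWHAE is the largest in both lines, and YWHAH holds 8.58% in HT29 and 3.12% in SW480.

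In SW480 SCR libraries, the order per kb of exon was YWHAE at 4446, YWHAQ at 2230, YWHAZ at 1216, YWHAG at 596, SFN at 481, YWHAB at 426 and YWHAH at 301. The ranges of the last 4 neighbours overlapped, while each of the first 3 members was above its next neighbour in every library. In HT29 SCR libraries the order was YWHAE at 2106, YWHAZ at 1515, YWHAQ at 1036, YWHAH at 556, YWHAG at 549, YWHAB at 416 and SFN at 172, with overlap of YWHAE with YWHAZ and of YWHAH with YWHAG. The order depends on the length used. Since the library capture targeted coding sequence, the coding length is an alternative, and with it YWHAZ came first in HT29 and SFN last in both lines.

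YWHAH was the member with the highest change in silenced SW480 cells, on which the family was selected. In the SCR libraries it lay between 559 and 954, with a median of 740. With siPOLR1D-2 it was at 2215, 1490 and 1731, and with siPOLR1D-3 at 1647, 2103 and 1977. The 6 silenced libraries were thus all above the 6 SCR libraries, with both siRNAs and on both sides of the first principal component, and their mean was 1860 ± 282 (SD, n = 6) against 739 ± 150 (SD, n = 6). On the log2(value + 1) scale this is a difference of 1.34, or 2.53-fold, and it was 1.30 for siPOLR1D-2 and 1.39 for siPOLR1D-3. The lowest silenced value, 1490, and the highest SCR value, 954, are the libraries nearest to the gap. The 2 siRNAs differed in YWHAH by 0.09 on the log2 scale (siPOLR1D-3 minus siPOLR1D-2). This too is a description, since the same silenced libraries were used in the selection.

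**Figure D2:**
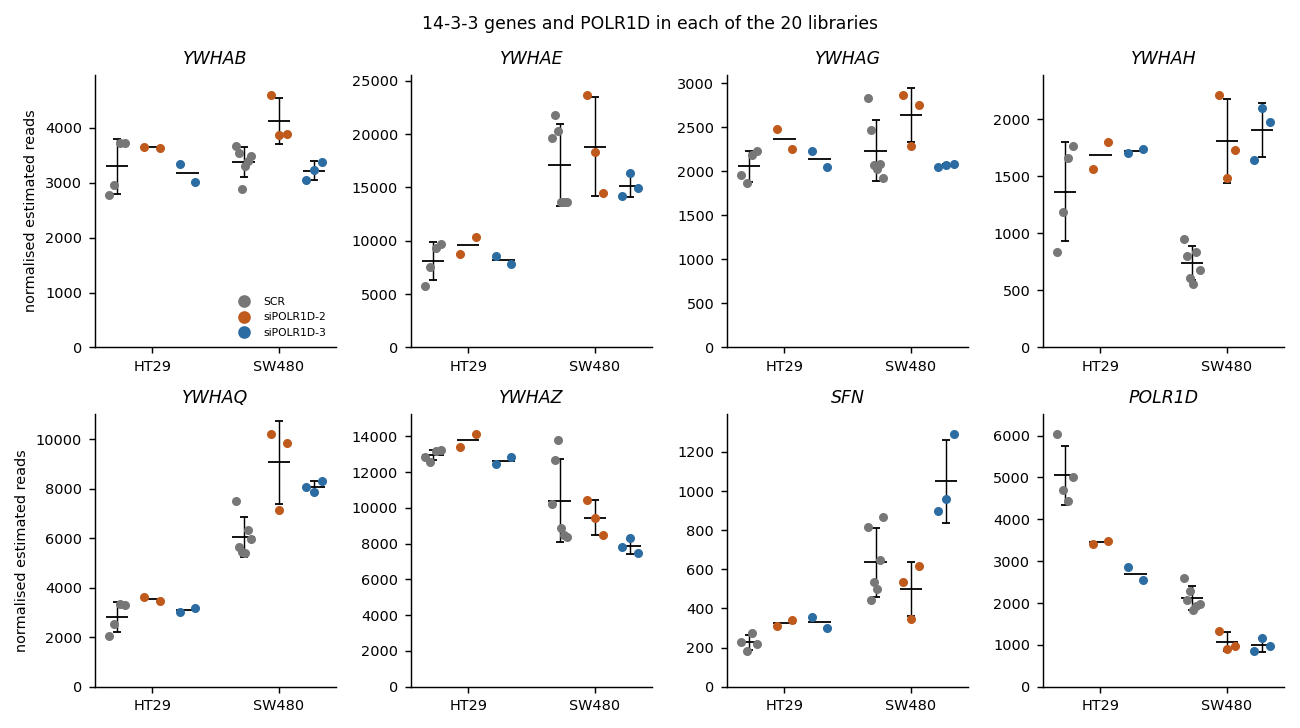
Normalised estimated reads of the 7 members and POLR1D in each library, with linear axes from 0. Points are libraries, horizontal lines are group means, and error bars are SD in groups of more than 2. In SW480, YWHAH lies between 1490 and 2215 in silenced libraries, all above the SCR libraries.

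YWHAH occupied a larger part of the family after silencing in SW480. Its share per kb of exon was 6.89% ± 0.81 (SD, n = 6) in the silenced libraries, from 5.8% to 8.03%, against 2.36% to 3.92% in SCR. This is still below the mean share of 9.88% ± 0.81 (SD, n = 4) in silenced HT29. The summed family level per kb was 9697 ± 1375 in SCR, 11685 ± 1839 with siPOLR1D-2 and 10370 ± 446 with siPOLR1D-3, with overlap of the ranges.

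Of the other 6 members, YWHAQ rose in silenced SW480 cells. Across all genes, limma called 6.73% of 15019 at an adjusted p under 0.05, and 23.2% had an unadjusted p under 0.05. YWHAQ lay between 5409 and 7503 in SCR with a median of 5813. It was at 10212, 7155 and 9837 with siPOLR1D-2 and at 8057, 7877 and 8313 with siPOLR1D-3. All silenced libraries were above every SCR library but 1, siPOLR1D-2 replicate 2, which lay below SCR replicate 1 and above the other 5.

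On the log2 scale YWHAQ was higher by 0.50 (SE 0.11, 1.42-fold, limma adjusted p = 0.0203), and an exact permutation test gave p = 0.00433, above the smallest possible p of 0.00216. It was the 1 member called of 6 tested, with the same count at an unadjusted p under 0.05. The call was kept when any 1 library was left out, with adjusted p from 0.008 to 0.047. Within side 1 alone, which holds 3 SCR and 2 siPOLR1D-2 libraries, the value was 0.48 with adjusted p = 0.542, and 0% of all genes were called.

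For the remaining 5 members no change passed the test in SW480. YWHAZ was at -0.25 on the log2 scale (SE 0.14, adjusted p = 0.312), and 3 of 6 silenced libraries were below all SCR libraries. SFN had 0.21 (SE 0.28, adjusted p = 0.711), YWHAB 0.11 (SE 0.11, adjusted p = 0.578), YWHAG 0.07 (SE 0.12, adjusted p = 0.776) and YWHAE -0.002 (SE 0.16, adjusted p = 0.996). The 95% intervals ran from -0.35 to 0.35 for YWHAE and from -0.40 to 0.81 for SFN. No member except YWHAH had all silenced libraries on 1 side of SCR, against a background of 4.57% of all genes tested.

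YWHAE, the member with the highest level per kb of exon, differed between the sides of the first component, which was itself computed from all genes tested. In SCR replicates 1 to 3 it lay between 19661 and 21750, and in SCR replicates 4 to 6 between 13624 and 13658. The silenced libraries were at 18341 and 23694 on side 1 and between 14209 and 16368 on side 2. YWHAZ differed in the same way, with SCR values of 10191 to 13799 on side 1 and of 8400 to 8865 on side 2. YWHAH, by contrast, had SCR values of 607 to 954 on side 1 and of 559 to 835 on side 2. With the side as a covariate, YWHAE was at 0.09 (adjusted p = 0.52).

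**Figure D3:**
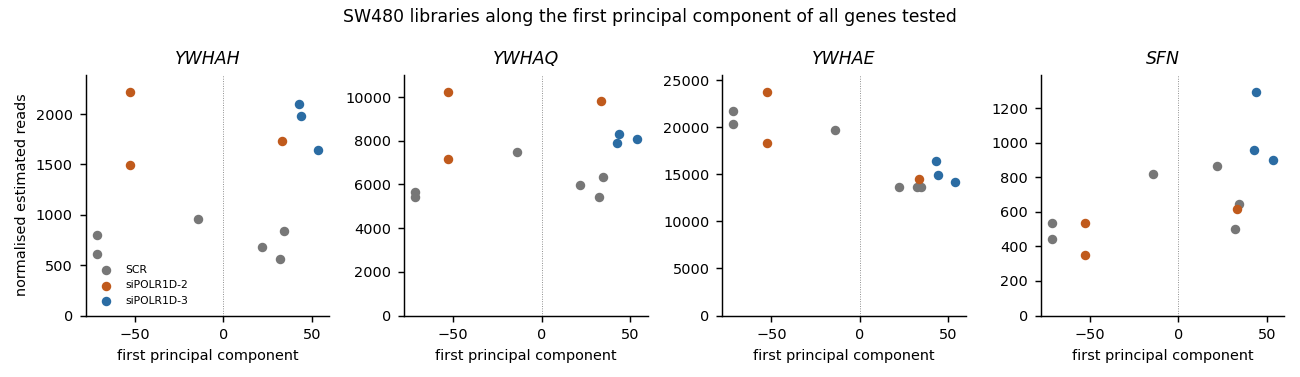
Normalised estimated reads of YWHAH, YWHAQ, YWHAE and SFN in the 12 SW480 libraries against the first principal component of all genes tested (42% of the variance, arbitrary units). The dotted line marks 0, the border between the sides. YWHAE is between 18341 and 23694 on the left and between 13624 and 16368 on the right, while YWHAH separates by silencing on both sides.

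Each siRNA was then compared with SCR alone. For siPOLR1D-2 in SW480, limma called 1 of 6 members against 8.16% of all genes, and 2 members had an unadjusted p under 0.05 against 25% of all genes. YWHAQ rose by 0.58 on the log2 scale (SE 0.13, adjusted p = 0.0209). Without siPOLR1D-2 replicate 1 it was 0.48 with adjusted p = 0.108, without replicate 3 it was 0.51 with adjusted p = 0.08, and against SCR replicates 1 to 3 alone it was 0.55 with adjusted p = 0.31, where 0% of all genes were called. YWHAB was at 4606, 3872 and 3899, all above the highest SCR value of 3676, which is 0.29 higher on the log2 scale (SE 0.10, adjusted p = 0.0962).

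For siPOLR1D-3 in SW480, limma called 0 of 6 members against 6.6% of all genes, and 3 members had an unadjusted p under 0.05 against 25% of all genes. SFN was at 900, 960 and 1292, all above the highest SCR value of 868, which is 0.75 higher on the log2 scale (SE 0.24, adjusted p = 0.0802). YWHAQ had 0.43 (SE 0.13, adjusted p = 0.0729) and YWHAZ had -0.38 (SE 0.16, adjusted p = 0.171), with all 3 libraries of each outside the SCR range. Against SCR replicates 4 to 6 alone, which lie on the same side, both YWHAQ at 0.46 (adjusted p = 0.00367) and SFN at 0.66 (adjusted p = 0.0324) passed the test, in a fit where 20.2% of all genes were called. YWHAZ did not pass in that fit and was at -0.13, with 7475 to 8295 against 8400 to 8865 in SCR replicates 4 to 6. Its values in SCR replicates 1 to 3, on the other side, were 10191 to 13799.

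SFN gave the largest difference between the siRNAs. With siPOLR1D-2 it was at 537, 348 and 617, within or below the SCR range of 443 to 868, and its mean log2 value differed from SCR by -0.34 (SE 0.24, adjusted p = 0.419). The direct comparison, siPOLR1D-3 minus siPOLR1D-2, was 1.09 for SFN (SE 0.28, 95% interval 0.49 to 1.69, limma adjusted p = 0.052), which missed the threshold. It passed in only 4 of 15 other settings, and the highest adjusted p among the 15 was 0.187. The 4 were without SCR replicate 1 (adjusted p = 0.0444), without SCR replicate 2 (0.0396), without siPOLR1D-2 replicate 3 (0.0416) and with upper quartile scaling (0.0493). That siPOLR1D-2 replicate, at 617, is the only one on side 2 of the first component, where all siPOLR1D-3 libraries lie. The siRNA and the side are thus partly confounded here. In this comparison 0 of 7 members were called against 3.32% of all genes, and 3 had an unadjusted p under 0.05 against 21.8% of all genes. The 7 include YWHAH, whose silenced libraries were used in the selection. The others were YWHAB at -0.35 (adjusted p = 0.107) and YWHAG at -0.35 (adjusted p = 0.201). For YWHAQ the difference was -0.15, with a 95% interval from -0.48 to 0.18.

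**Figure D4:**
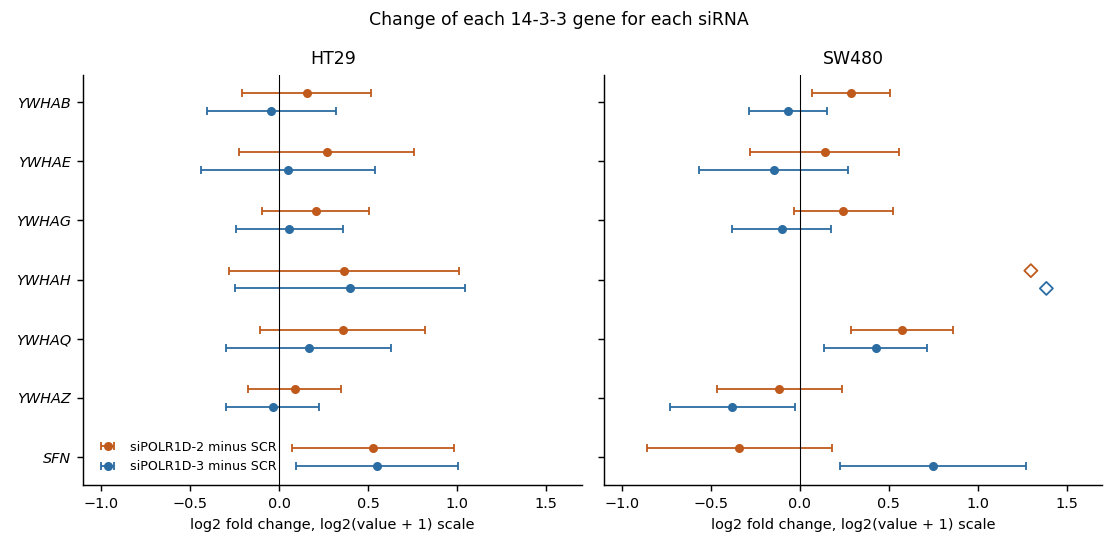
Log2 fold change of each member for each siRNA against SCR, on the log2(value + 1) scale, in HT29 and SW480. Circles with bars are limma estimates with 95% intervals, and open diamonds are YWHAH in SW480, shown without an interval because the family was selected on it. SFN is at -0.34 with siPOLR1D-2 and 0.75 with siPOLR1D-3 in SW480.

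In HT29 no member passed the test. Limma called 0 of 13274 genes, that is 0%, at an adjusted p under 0.05, and 10.7% had an unadjusted p under 0.05. The silenced gene POLR1D was not called either (limma adjusted p = 0.355), so a missing call does not show that a member was unchanged. Of the 7 members, 0 were called and 1, SFN, had an unadjusted p under 0.05. SFN was at 228, 184, 276 and 219 in SCR, at 308 and 340 with siPOLR1D-2 and at 357 and 302 with siPOLR1D-3. All 4 silenced libraries were thus above all 4 SCR libraries, which held in either direction for 6.89% of the genes tested. Its log2 fold change was 0.54 (SE 0.15, 1.45-fold), with limma p = 0.006 and adjusted p = 0.381, and the exact permutation test gave 0.0286, the smallest p that 4 against 4 allows.

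YWHAH in HT29 was not part of its selection and was tested. In SCR it was at 836, 1188, 1664 and 1769, a spread of more than the difference from the silenced libraries. With siPOLR1D-2 it was at 1568 and 1803, and with siPOLR1D-3 at 1708 and 1735. All 4 silenced libraries were above the SCR median but only 1 was above all SCR libraries, and the log2 fold change was 0.38 (SE 0.22, 95% interval -0.10 to 0.86, adjusted p = 0.531). YWHAQ had 2058, 2554, 3338 and 3297 in SCR against 3616 and 3448 with siPOLR1D-2 and 3002 and 3187 with siPOLR1D-3, a difference of 0.26 on the log2 scale (SE 0.16, adjusted p = 0.553). SCR replicates 1 and 2 were both below replicates 3 and 4 for all members but SFN.

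The other 4 members had overlapping ranges in HT29. YWHAE was at 0.16 on the log2 scale (SE 0.17), YWHAG 0.13 (SE 0.11), YWHAB 0.05 (SE 0.13) and YWHAZ 0.03 (SE 0.09), with adjusted p from 0.641 to 0.926. YWHAZ was at 12591 to 13250 in SCR and 12448 to 14129 in silenced libraries.

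Taken by siRNA, HT29 gave 0 of 7 members called for siPOLR1D-2 and for siPOLR1D-3, where 0% of all genes were called for either. SFN was the 1 member with an unadjusted p under 0.05 in each, with log2 fold changes of 0.53 and 0.55 (SE 0.20 for both), against 4.36% of all genes for siPOLR1D-2 and 7.77% for siPOLR1D-3. Between the siRNAs, limma called 0 of 7 members and 0% of all genes, and 0 members had an unadjusted p under 0.05 against 1.56% of all genes. The difference in SFN was 0.02, with a 95% interval from -0.51 to 0.55.

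The response was also compared between the lines. For the 6 members tested, 0 differed in the limma interaction of all 20 libraries, where 0.0393% of 12724 genes were called, and 0 had an unadjusted p under 0.05 against 8.58% of all genes. SW480 minus HT29 was 0.24 for YWHAQ (95% interval -0.16 to 0.64) and -0.33 for SFN (95% interval -1.13 to 0.47), so a larger rise of YWHAQ in SW480 was not shown. For YWHAH the difference was 0.96, given as a description because the member was selected on the SW480 value.

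The genes most like YWHAH over the libraries of a line were found by Pearson correlation of log2 values, as a description over libraries that share treatment and depth. Over the 12 SW480 libraries they included GALNS (r = 0.964), a lysosomal sulfatase, RTF1 (0.955), a factor of transcription elongation, HNRNPUL1 (0.952), an RNA-binding protein, and TLE3 (0.951), a corepressor. HNRNPUL1 also followed YWHAH over the 8 HT29 libraries (r = 0.917), whereas GALNS did not (r = -0.497). In HT29 the closest were CD24 (0.988), DLGAP5 (0.988), SHF (0.987), RARRES2 (0.985) and TOP2A (0.984), and over SW480 TOP2A had r = -0.473. Spearman correlations of the same genes in HT29, taken on ranks, were lower, from 0.762 (TOP2A) to 0.905 (SHF). YWHAH was lowest there in SCR replicates 1 and 2, at 836 and 1188.

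Partners of 14-3-3 proteins were examined as a list of 62 genes, which covers kinases that write the binding sites, client proteins and genes of the DNA damage response listed with SFN. In SW480, limma called 9 of 62 (14.5%, against 6.73% of all genes), of which 1 rose and 8 fell. Falls also prevailed among all 1011 genes called, of which 367 rose and 644 fell. The median log2 fold change of the list was -0.07 against 0.01 over all genes. The count went down to 2 to 5 without SCR replicate 2 (5), SCR replicate 3 (3), SCR replicate 6 (3), siPOLR1D-2 replicate 3 (4), or siPOLR1D-3 replicate 1 (2), 2 (5) or 3 (3), and in the same fits the share over all genes was 3.53% to 5.61%. At an unadjusted p under 0.05 there were 17 of 62 (27.4%, against 23.2% of all genes). By siRNA the share of the list was nearer to the background, with 6 of 62 called (9.68%) for siPOLR1D-2 against 8.16% of all genes, and 6 of 62 (9.68%) for siPOLR1D-3 against 6.6%.

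Among clients, ARHGEF2, an exchange factor held on microtubules, fell by 0.99 on the log2 scale (adjusted p = 0.00803), from 2470 ± 766 to 1201 ± 140 (SD, n = 6 each). NEDD4L, a ubiquitin ligase of ion channels, fell by 0.81 (adjusted p = 0.0157). YAP1, the transcriptional coactivator of the Hippo pathway, fell by 0.49 (adjusted p = 0.0286), from 3608 ± 377 to 2588 ± 474. CRTC1, a coactivator of CREB that 14-3-3 proteins hold in the cytoplasm, was the 1 gene that rose, by 0.59 (adjusted p = 0.0226), from 233 ± 32 to 351 ± 49.

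Each role holds few genes, and 6.73% of all genes were called in this fit. Of the 3 cell cycle clients, 2 fell. CDKN1B, the cyclin-dependent kinase inhibitor p27, fell by 0.58 (adjusted p = 0.0366), and CDC25C, the phosphatase that activates CDK1, fell by 0.38 (adjusted p = 0.0486). Of the 5 damage response genes listed with SFN, 2 fell, namely GADD45A by 1.10 (adjusted p = 0.0386) and MDM2 by 0.46 (adjusted p = 0.0348). CDKN1A, the cyclin-dependent kinase inhibitor p21, had -0.83 (adjusted p = 0.154). Of 14 kinases that write binding sites, PIM1 fell by 0.87 (adjusted p = 0.0369). Among the 8 client kinases, the 2 clients of apoptosis and the 2 ubiquitin ligases of SFN, 0 were called.

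In HT29, 0 of 60 listed genes were called by limma, and 10 had an unadjusted p under 0.05 (16.7%, against 10.7% of all genes), 2 with higher and 8 with lower values. TRIM25, a ubiquitin ligase of SFN, had the smallest p in the list, with 1444 ± 386 in SCR and 869 ± 20 in silenced libraries (SD, n = 4 each) and a difference of -0.70 on the log2 scale (SE 0.17, adjusted p = 0.355). GADD45A had -0.65 (adjusted p = 0.433), MDM2 -0.32 (adjusted p = 0.43) and CDKN1B -0.34 (adjusted p = 0.443).

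**Figure D5:**
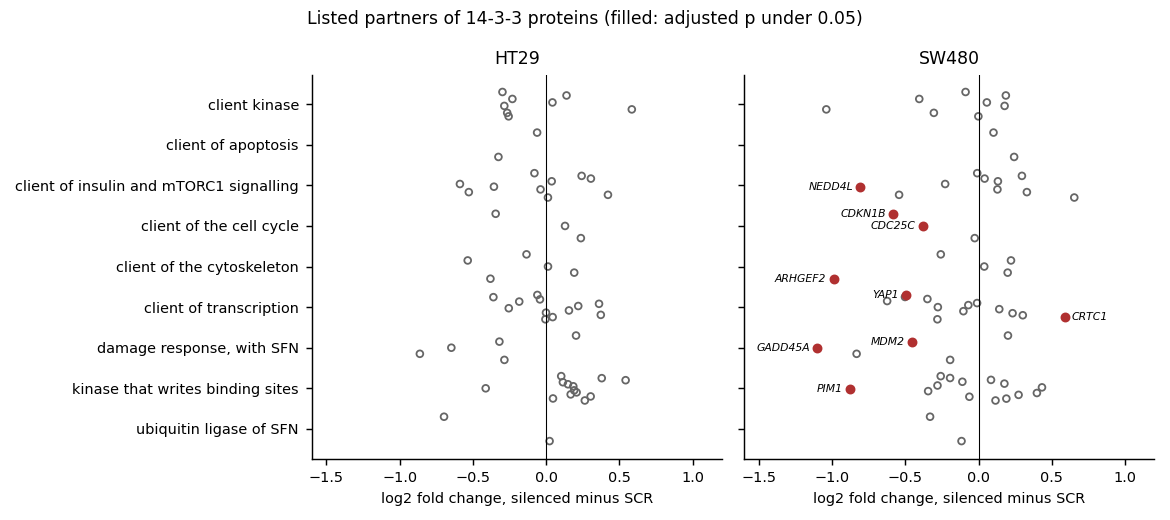
Log2 fold change, silenced minus SCR, of the listed partners of 14-3-3 proteins by role in HT29 (60 genes) and SW480 (62 genes). Filled and named points have an adjusted p under 0.05, and open points do not. The 9 filled points are all in SW480, 8 with lower values and CRTC1 with a higher value.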

How the data were processed

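RNA was captured for the coding transcriptome, sequenced as paired-end reads and quantified by the authors with kallisto 0.44.0 (build hg38 per the labels). The deposited signal values are estimated reads per gene that the authors normalised with DESeq2 1.24.0, separately for each line. The index, annotation and strand setting are not given in the sources used here. Between 27.1% and 51% of low values were near whole multiples of 1 read, so reads per gene were not recovered and no count test was run. Limma 3.58.1 (R 4.3.3) was run on log2(value + 1) with a mean-variance trend.

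The tests covered genes that reached 10 in as many libraries as the smaller arm, and all 7 members passed in both lines. Each line was fitted alone, silenced against SCR and then with 3 groups (SCR and each siRNA), and an interaction was fitted over all 20 libraries. Benjamini-Hochberg adjustment ran over all genes tested, with a threshold of 0.05. Fold changes of low genes are understated on this scale. Exact 2-sided permutation tests used scipy 1.17.1. Alternatives changed the pseudocount, filter, scaling, trend, replicate block, libraries, summing of rows and length.

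The members, the partner list and the tests were chosen with earlier results of these data known. The genes named are the 7 members, POLR1D, the largest pseudogene row, up to 12 partners called per line, the 5 genes closest to YWHAH per line and the markers, of which some are not reported here. The partners named without a call were chosen after their values were seen. Protein sequences were not used here, and likeness of proteins was computed from translated GENCODE v29 coding sequences.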

Additional observations from a re-analysis of the deposited data

Results flagged for a closer look

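No library stood far from the others of its group in any of 32 groups of 4 or 6 libraries (7 members and POLR1D, SCR and silenced, in 2 lines) by Dixon's test, where chance would mark about 1 in 20. In SW480, YWHAG was above the SCR mean in all 3 siPOLR1D-2 libraries and below it in all 3 siPOLR1D-3 libraries, and the difference between the siRNAs was -0.35 on the log2 scale (limma adjusted p = 0.201). In HT29, YWHAZ was above the SCR mean in both siPOLR1D-2 libraries and below it in both siPOLR1D-3 libraries, with a difference of -0.12 (limma adjusted p = 1.00). Neither difference passed the test.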

How the results depend on the processing

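Of 1043 single values recomputed under other settings, 985 kept their direction and their side of the threshold. YWHAH in silenced SW480 cells ranged from 1.23 to 1.44 over 27 settings. This range is a description, since the family was selected on that change and the settings reuse the same libraries. The 7 control shares differed between the lines under every alternative tried (no length, coding length, pseudogene rows added, 1 library left out). For YWHAH this is a description, since its SW480 SCR values were part of its selection.

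The labels do not say whether replicate numbers pair the samples. Same-numbered libraries had residual correlations of -0.17 to 0.04 (HT29, 4 pairs) and -0.60 to 0.39 (SW480, 6 pairs). Differently numbered libraries had -0.23 to 0.23 in HT29 and -0.59 to 0.61 in SW480. Residuals were taken from the mean of each group, so the 2 libraries of an HT29 siRNA had opposite residuals by construction. The correlations therefore cannot decide whether the numbers are pairs. With the replicate block, SW480 gave 0 members and 0 listed partners called, with 0 genes called in all, YWHAQ at 0.47 (adjusted p = 0.162), POLR1D at -1.17 (adjusted p = 0.0865) and YWHAG at -0.069. For siPOLR1D-2 it gave 0 members, with YWHAE at -0.15. In HT29 the block gave 1 member called (YWHAH, 0.77, adjusted p = 0.0312), 5 partners and POLR1D at -0.80 (adjusted p = 0.0404), with 735 genes (5.54%) called in all, with YWHAB at 0.14 for siPOLR1D-3. The block result draws on shared replicate numbers, and whether they mark real pairs is unknown. No silenced library carries the numbers of SCR replicates 3 and 4 in HT29 or 4 to 6 in SW480. The block therefore leaves these SCR libraries out of the estimates. In HT29, YWHAH was thus set against SCR values of 836 and 1188, without those of 1664 and 1769.

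Side 1 alone gave 0 members, 0 partners, 0 genes in all and POLR1D at -1.06 (adjusted p = 0.261), with SFN at -0.42 and YWHAE at 0.021, from 5 libraries. Side 2 alone gave 14 partners and 1939 genes in all (12.5%, against 6.73% with both sides), with YWHAB at -0.0055 and YWHAE at 0.13, and the side as a covariate gave YWHAE 0.088. Without the filter 4 partners and 2.44% of all genes were called. SCR replicates 1 to 3 alone gave 0 members for siPOLR1D-2 and YWHAE at -0.15. That YWHAE estimate is the same as with the replicate block, which leaves out SCR replicates 4 to 6. SCR replicates 4 to 6 alone gave 2 members for siPOLR1D-3 and 3110 genes in all (20.2%, against 6.6% with all SCR), with YWHAE at 0.15 and YWHAG at 0.038.

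Upper quartile scaling moved the median of all genes by up to 0.11 (siPOLR1D-3 in SW480, from 0.02 to 0.12). It gave 1 member called for siPOLR1D-3 and 1 between the siRNAs, with YWHAB at 0.044 and YWHAG at 0.0077 for siPOLR1D-3. In pooled SW480, YWHAE was 0.069 with it and 0.082 with quantile normalisation. In HT29 siPOLR1D-3 it gave YWHAB 0.021 and YWHAZ 0.029.

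Leaving out 1 library, partners called in SW480 ranged from 2 to 10, members called from 0 to 1 for each siRNA and for the difference between siRNAs, and YWHAE from -0.10 to 0.073. For siPOLR1D-2 in SW480 YWHAE ranged from -0.039 to 0.32, and the YWHAH difference between siRNAs from -0.044 to 0.24. In HT29, YWHAB ranged from -0.022 to 0.12 and YWHAZ from -0.0079 to 0.053. With siPOLR1D-3 alone, YWHAB ranged from -0.12 to 0.031, YWHAE from -0.10 to 0.15 and YWHAG from -0.0040 to 0.12. Between the HT29 siRNAs, YWHAH ranged from -0.067 to 0.14 and SFN from -0.099 to 0.14. Between lines, YWHAB ranged from -0.012 to 0.13 and YWHAG from -0.12 to 0.012. The cause of these shifts was not tested. The reads behind a single gene are unknown, so no counting error is given.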
